A study of Homo sapiens with 4 samples.

Results

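SNAIL1 binding was examined at 6 genes that encode the desmosome of simple epithelia, DSG2, DSC2, JUP, PKP2, PKP3 and DSP. Every peak of the deposited lists whose summit lay within 10 kb of 1 of these gene bodies (hg19) was taken, which gave 3 of the 2177 peaks listed in 4 libraries. JUP held a peak in both libraries of induced cells and DSP in 1 of them, while DSG2, DSC2, PKP2 and PKP3 held none in any library. The cells were LS174T, an established human colorectal adenocarcinoma line (pN1-LS174T Snail1-HA cells), carrying a doxycycline-inducible murine SNAIL1 with a hemagglutinin (HA) tag. Induced 1 and induced 2 received 0.1 mg/ml doxycycline for 6 h, and uninduced 1 and uninduced 2 were the same engineered cells without doxycycline. All 4 libraries were anti-HA chromatin immunoprecipitations. The antibody was therefore directed at the tag and not at endogenous SNAIL1. Uninduced 1 and uninduced 2 still listed 5 and 11 peaks, whose source was not tested. An effect of doxycycline itself cannot be told apart from that of SNAIL1-HA. The labels do not say whether the cells were 1 clone or the replicates separate cultures, so the spread between replicates may be technical in part.

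Desmosomes are adhesive junctions that couple the keratin filaments of neighbouring epithelial cells. The desmosomal cadherins, desmogleins and desmocollins, bind across the gap between cells, the armadillo proteins plakoglobin and plakophilins bind their tails, and desmoplakin ties this plaque to the filaments. SNAIL1 is a zinc-finger repressor of epithelial genes that drives epithelial-mesenchymal transition, in which epithelial junctions are dismantled, and it recognises the E-box CAGGTG, which reads CACCTG on the other strand.

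Promoter windows of 300 bases, from 250 before to 50 after an annotated start, were taken from RefSeq (GRCh38.p14) for 4 of the 6 genes, and PKP2 and PKP3 had no entry. There were 6 windows, since JUP and DSC2 have 2 annotated starts each. The 4 windows with the SNAIL-type E-box are shown, 5′ to 3′ on the gene's strand with each CAGGTG or CACCTG in capitals, because they include genes with and without a peak. They lie at chr17:41785927-41786226 (minus strand) for JUP, at its start further downstream, chr6:7541421-7541720 (plus) for DSP, chr18:31497927-31498226 (plus) for DSG2, and chr18:31102372-31102671 (minus) for DSC2, at its start further upstream.
JUP: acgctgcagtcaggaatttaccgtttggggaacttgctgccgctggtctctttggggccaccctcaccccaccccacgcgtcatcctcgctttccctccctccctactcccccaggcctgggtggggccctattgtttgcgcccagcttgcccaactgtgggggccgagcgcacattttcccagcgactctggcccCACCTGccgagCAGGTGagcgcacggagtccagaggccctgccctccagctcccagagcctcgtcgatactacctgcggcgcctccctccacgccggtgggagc
DSP: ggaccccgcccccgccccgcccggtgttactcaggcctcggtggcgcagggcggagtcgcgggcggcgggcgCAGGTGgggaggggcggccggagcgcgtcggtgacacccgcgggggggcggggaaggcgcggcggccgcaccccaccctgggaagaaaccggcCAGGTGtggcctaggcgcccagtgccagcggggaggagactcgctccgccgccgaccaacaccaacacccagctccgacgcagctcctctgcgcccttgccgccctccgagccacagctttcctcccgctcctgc
DSG2: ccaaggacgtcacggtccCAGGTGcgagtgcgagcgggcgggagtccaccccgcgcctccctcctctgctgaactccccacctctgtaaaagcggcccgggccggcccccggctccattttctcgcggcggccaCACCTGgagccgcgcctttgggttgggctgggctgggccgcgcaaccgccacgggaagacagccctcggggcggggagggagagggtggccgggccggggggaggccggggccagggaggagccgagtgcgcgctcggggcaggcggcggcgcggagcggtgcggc
DSC2: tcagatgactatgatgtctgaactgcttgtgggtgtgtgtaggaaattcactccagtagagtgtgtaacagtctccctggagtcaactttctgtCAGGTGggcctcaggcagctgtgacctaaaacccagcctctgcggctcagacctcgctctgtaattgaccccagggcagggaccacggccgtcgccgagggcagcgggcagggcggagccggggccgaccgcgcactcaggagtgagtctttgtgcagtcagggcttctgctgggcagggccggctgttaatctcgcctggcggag

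All 4 genes with a window had the E-box in at least 1 of them, whether or not a peak was listed there. JUP, DSP and DSG2 had 2 matches each and DSC2 had 1. Counted by window, 4 of the 6 had a match. Over 35114 RefSeq windows of this length, 20.6% held at least 1 match and 3.49% held 2 or more. The other windows of JUP and DSC2 had no match. The general E-box CANNTG, which includes these matches, was counted too. It occurred 3 times in the printed JUP and DSC2 windows and 2 times in those of DSP and DSG2. The other windows of JUP and DSC2 had 0, and 68.7% of all windows had at least 1. In JUP the matches face each other with 5 bases between them, a pattern (CACCTG, any 5 bases, CAGGTG, which reads alike on both strands) that occurred in 5 of the 35114 windows (0.0142%) and was searched for after the JUP sequence had been seen. G and C made up 77% of the DSP window and 76.7% of the DSG2 window, above the upper quartile of 68% over all windows. This JUP window, at 66.7%, and the DSC2 window, at 60.7%, lay between the quartiles of 47% and 68% (median 58.7%). These matches describe the letters in the windows and are not shown to be bound.

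Peaks near the 6 genes were listed in induced cells only. Induced 1 had 1, induced 2 had 2, and uninduced 1 and uninduced 2 had 0 each, so the means were 1.5 ± 0.707 (SD, n = 2) and 0 ± 0 (SD, n = 2). Both induced libraries lay above both uninduced ones. An exact two-sided permutation test over these libraries gave p = 0.33, the smallest this design allows, so the difference cannot pass a threshold of 0.05. In all, induced 1 listed 823 peaks, induced 2 listed 1338, uninduced 1 listed 5 and uninduced 2 listed 11. The uninduced lists thus held 0.00162 and 0.00355 peaks per Mb of hg19. Lists this short would rarely place a peak near any 6 genes, so the difference is not shown to be particular to desmosome genes. The 6 gene bodies with their 10 kb margins covered 0.401 Mb. Peaks were thus listed at 2.49 per Mb (95% exact Poisson interval 0.0631 to 13.9) in induced 1 and 4.98 per Mb (0.604 to 18.01) in induced 2, where the densities over the 3096 Mb of hg19 were 0.266 and 0.432. These densities rest on 1 and 2 peaks, their intervals cover counting error only, and other genes were not compared. Among the members the summit farthest from its gene lay 90 bp outside it, at DSP. The nearest summits beyond the 10 kb limit were 12.458 kb (induced 1) and 12.511 kb (induced 2) from PKP3.

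**Figure D1:**
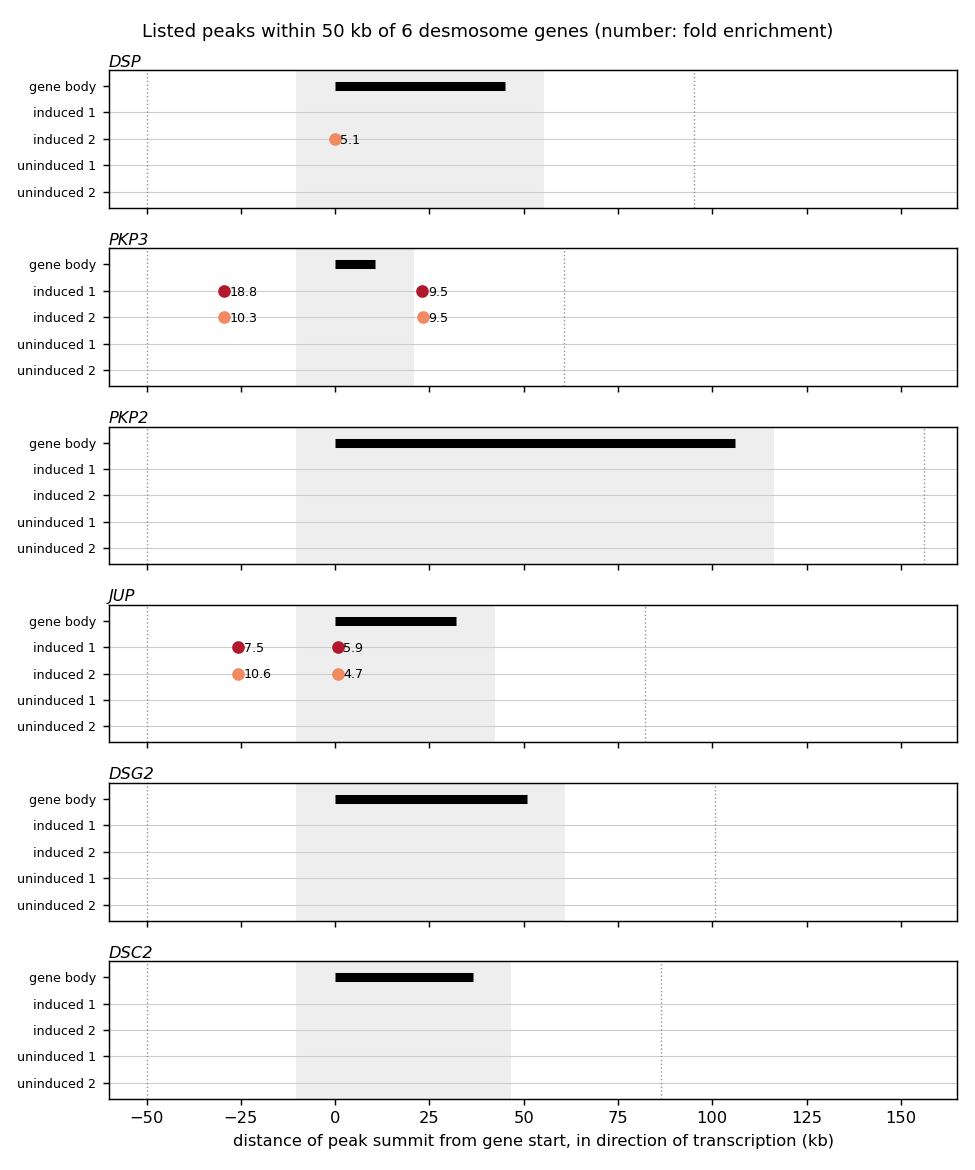
Each panel shows 1 gene, with the gene body as a black bar, the 10 kb margin shaded, and the summits of listed peaks as points for the 4 libraries against distance from the gene start in kb, up to 50 kb beyond the gene (dotted lines). Numbers are fold enrichments. Only JUP (both induced libraries) and DSP (induced 2) have a point in the shaded area, and the uninduced rows are empty.

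JUP encodes plakoglobin, the armadillo protein that binds the tails of the desmosomal cadherins and also serves in adherens junctions. The gene lies on chromosome 17 from 39910859 to 39942964, minus strand, and its peaks sat just inside its start. In induced 1 the peak ran from 39942096 to 39942391 with 5.86-fold enrichment. In induced 2 it ran from 39942180 to 39942460 with 4.74-fold enrichment. Uninduced 1 and uninduced 2 listed no peak there, nor any other on chromosome 17. The peaks of the induced libraries overlapped by 212 bp and their summits were 10 bp apart, at 696 bp and 686 bp downstream of the gene start.

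The E-box pair printed above lies close to that distance. Measured within the RefSeq annotation, the paired matches ran from 681 to 697 bp downstream of the most upstream JUP start, since the start used for the printed window is 735 bp downstream of it. The peak distances are measured in hg19 and the motif distances in GRCh38. The JUP gene models of the builds differ in length by 3 bp (32106 and 32103 bp), and whether their starts are the same base was not tested. Whether the peak lies in an exon or an intron of JUP was not assigned here, as no hg19 exon annotation was used.

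**Figure D2:**
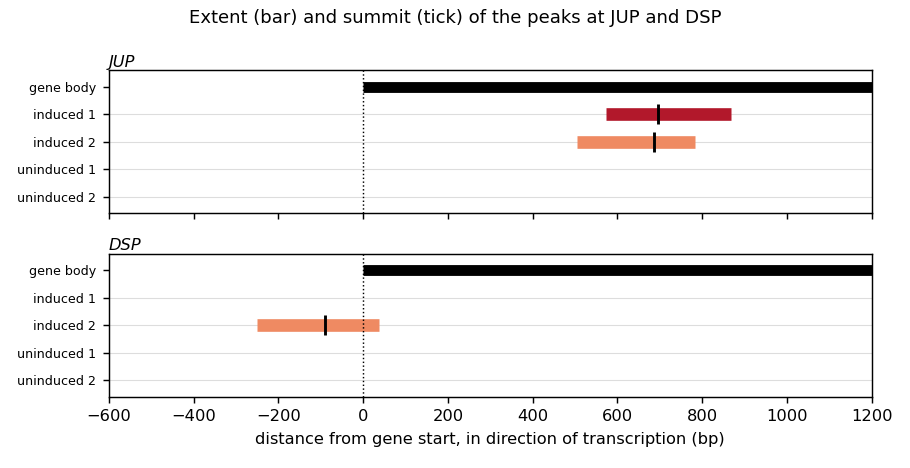
Bars give the extent of the listed peaks and ticks their summits, in bp from the hg19 gene start in the direction of transcription, for JUP and DSP in the 4 libraries. The JUP peaks of both induced libraries overlap inside the gene, with summits at 696 and 686 bp, and the DSP peak of induced 2 spans the gene start.

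The JUP site was of middling strength in its lists. Reads over a summit were recovered from the listed values and are given with exact Poisson intervals for counting error. In induced 1, 56 reads (95% interval 42.3 to 72.7) covered the summit, or 40.0 after the scaling used for peak calling, over a local background of 6.00 on that scale. In induced 2, 38 reads (26.9 to 52.2) covered it over a background of 7.23. The fold reached or exceeded that of 61.5% of the peaks in induced 1 and 46.3% in induced 2. A fold of at least 5 was listed for 59.1% of the peaks of induced 1, JUP among them, and for 48.3% of those of induced 2, where DSP passed it and JUP did not.

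Reads at JUP were not shown to differ between the induced libraries beyond counting error. They were 1.47 times as many in induced 1, against an overall ratio of 1.23 over all shared peaks, which left a difference of 0.26 on the log2 scale (95% interval -0.36 to 0.90). The exact binomial test gave p = 0.408 and an adjusted p of 1 (Benjamini-Hochberg over 661 shared peaks). None of the 661 passed this test (0%), and 19 had an unadjusted p under 0.05. Recurrence of a peak in the other induced list was common: 80.3% of the peaks of induced 1 and 49.3% of those of induced 2 overlapped a peak of the other. With each list divided by fold into 4 groups, 179 of 206 peaks (86.9%, exact interval 81.5 to 91.2) of induced 1 and 109 of 339 (32.2%, 27.2 to 37.4) of induced 2 were shared in the groups that hold JUP. In the 2 induced lists 0.608% and 0.523% of peaks overlapped an uninduced peak, and the JUP peaks were not among these.

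DSP encodes desmoplakin, the plakin that links the desmosomal plaque to keratin filaments. The gene lies on chromosome 6 from 7541870 to 7586946, plus strand. Induced 2 listed a peak across its start, from 7541620 to 7541908, with the summit 90 bp upstream of the start and 5.14-fold enrichment. Induced 1, uninduced 1 and uninduced 2 listed none there, and the nearest peak of induced 1 was 1.759 Mb away. The summit in induced 2 was covered by 32 reads (21.9 to 45.2) over a background of 5.42, a fold at or above that of 55.6% of the list. The DSP matches printed above began 178 and 85 bases upstream of the RefSeq start. The summit distance is from the hg19 start, and the gene models differ in length by 33 bp, so these distances are not on 1 scale.

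The DSP peak is not replicated, and its lack in induced 1 is not shown to be lack of binding. At the overall ratio of shared peaks, 32 reads in induced 2 correspond to 39.3 in induced 1. The lowest summit called in induced 1 had 28 reads, and 144 of its peaks (17.5%) had no more than 39.3. At the depth ratio of 1.45 inferred from genome-wide backgrounds, they correspond to 46.3 reads, and 311 peaks (37.8%) of induced 1 had no more than that. A site of that size could thus be called in induced 1, depending on the local background, which the lists do not give where no peak was called. Among the induced 2 peaks in the same fold group (4.93 to 6.28), 167 of 329 (50.8%, exact interval 45.2 to 56.3) were found in induced 1.

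**Figure D3:**
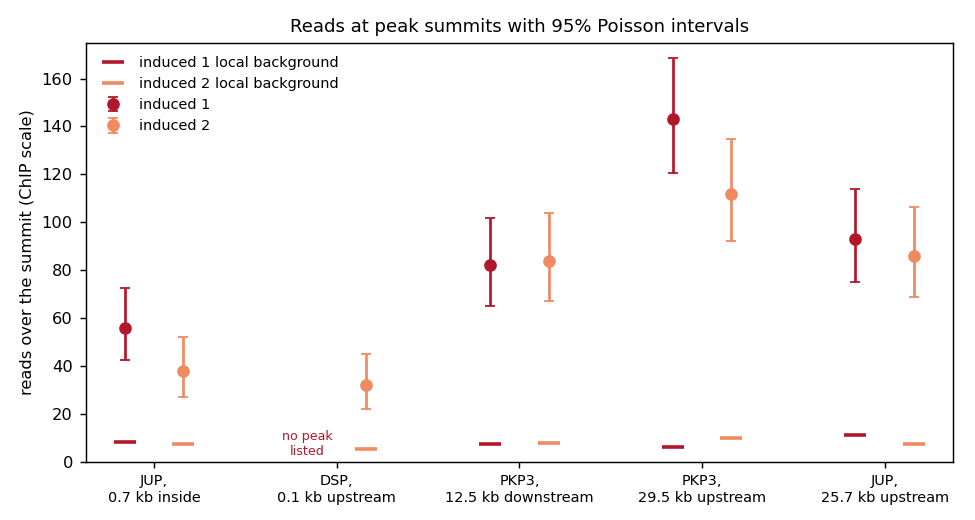
Points are reads over the summit with 95% Poisson intervals and dashes the local background, both on the scale of ChIP reads, for induced 1 and induced 2 at the sites in JUP and DSP and at the 3 sites found 12.458 to 29.525 kb from PKP3 or JUP. The JUP and DSP sites, with 32 to 56 reads, lie below the 3 flanking sites, with 82 to 143.

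PKP3 encodes plakophilin 3, a plaque protein of simple and stratified epithelia. It lies on chromosome 11 from 394217 to 404908 and had no peak within 10 kb, yet strong peaks of both induced libraries stood on either side of it. Its direction, from low to high coordinates, is textbook knowledge and not from the files. Beyond its end, on the side of SIGIRR in RefSeq gene order, the peak spanned 417174 to 417575 in induced 1 (9.53-fold, 82 reads) and 417177 to 417595 in induced 2 (9.54-fold, 84 reads). The summits lay 12.458 and 12.511 kb from PKP3. Upstream, on the side of B4GALNT4, a peak spanned 364454 to 364938 in induced 1 (18.8-fold, 143 reads) and 364466 to 364929 in induced 2 (10.3-fold, 112 reads). Its summits were 2 bp apart, 29.525 and 29.523 kb from the gene. This upstream site reached a fold at or above that of 99.8% of the peaks in induced 1 and 94.3% in induced 2. After the overall ratio of 1.23 was taken out, reads differed between the libraries by 0.06 on the log2 scale (-0.31 to 0.43) at the upstream site and by -0.33 (-0.79 to 0.12) at the downstream one, each with an adjusted p of 1 by the exact binomial test. The data do not assign these peaks to PKP3 or to a neighbour.

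A peak also stood outside the margin of JUP, stronger than the one inside the gene. It lay upstream of the start, on the side of P3H4, and ran from 39968420 to 39968949 in induced 1 (7.49-fold, 93 reads) and from 39968371 to 39968848 in induced 2 (10.6-fold, 86 reads). The summits were 7 bp apart, 25.671 and 25.664 kb from the gene. Its intervals of reads, 75.1 to 114 and 68.8 to 106, do not overlap those of the JUP site in the same library. The data do not assign this peak to JUP or to a neighbour such as P3H4.

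**Figure D4:**
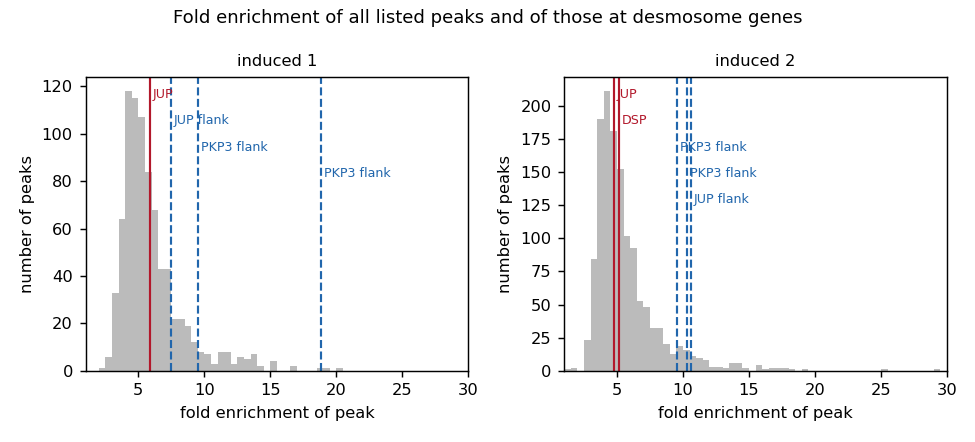
Grey bars count all peaks of each induced list by fold enrichment, solid red lines mark the peaks at JUP and DSP, and dashed blue lines the peaks 10 to 50 kb from PKP3 or JUP. The red lines (4.74 to 5.86) lie near the median folds of 5.33 in induced 1 and 4.91 in induced 2, and the blue lines (7.49 to 18.8) lie above them.

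PKP2 encodes plakophilin 2, the plakophilin of simple epithelia and heart muscle. It lies on chromosome 12 from 32943682 to 33049780, the longest of the 6 gene bodies at 106099 bp. No peak was listed in it or within 10 kb. Over hg19 the whole lists held 0.266 peaks per Mb in induced 1 and 0.432 in induced 2. At these densities few peaks would be expected in a stretch of this length, so the lack does not set PKP2 apart. The nearest peak of induced 1 (3.90-fold, 29 reads) spanned 32552579 to 32552957, and that of induced 2 (5.39-fold, 58 reads) spanned 32551982 to 32552347. Both lay 0.391 Mb away, but they did not overlap and so are not 1 shared site. Neither uninduced library listed any peak on chromosome 12.

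No peak was listed at the desmosomal cadherin genes, and few would be expected in a stretch of this length. DSG2 and DSC2 encode the desmoglein and desmocollin of simple epithelia, and lie on chromosome 18 from 29078027 to 29128814 and from 28645944 to 28682388. In RefSeq gene order DSC1, DSG1, DSG4 and DSG3, which serve mainly in stratified epithelia, stand between them. From DSC2 to DSG2, 482.871 kb of hg19 with 10 kb on either side, all 4 libraries listed 0 peaks, so the 4 genes in between had none within their bodies. At the density of each whole list over hg19, a stretch of this length would hold 0.134 peaks in induced 1 and 0.217 in induced 2, so a count of 0 does not set it apart. Chromosome 18 as a whole held 15 peaks in induced 1, 19 in induced 2 and 0 in each uninduced library. The nearest to DSG2 was 0.395 Mb away in induced 2 (5.53-fold, 37 reads) and 3.428 Mb away in induced 1 (7.23-fold, 77 reads). The same peaks were the nearest to DSC2, at 0.841 and 3.875 Mb. DSG2 had 2 E-box matches in its window, as JUP and DSP did, and no peak was listed at it. DSC3, PKP1, PKP4, PPL, EVPL, PERP and the keratins KRT8, KRT18, KRT19 and KRT20 were not analysed here, since no hg19 positions were used for them.

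**Figure D5:**
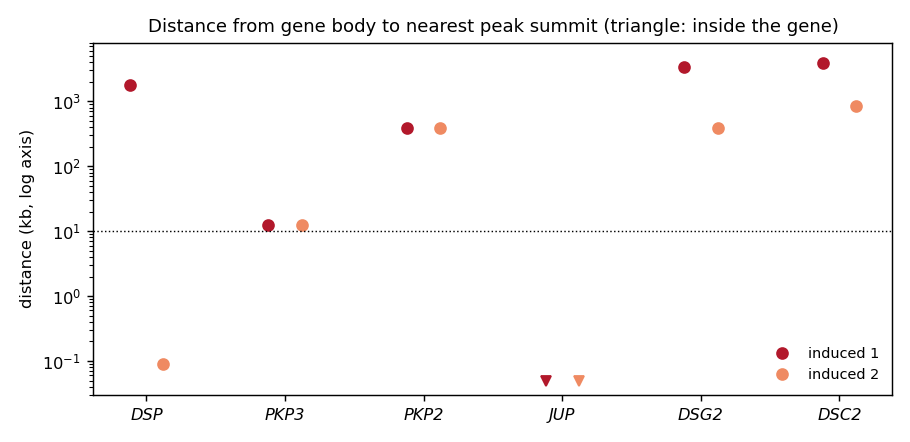
The distance from each gene body to the nearest peak summit is shown in kb on a log axis for induced 1 and induced 2, with triangles at the bottom for summits inside the gene and a dotted line at 10 kb. JUP lies inside and PKP3 just beyond the line in both libraries. PKP2 is at 0.391 Mb in both, from peaks that do not overlap. DSP is at 0.09 kb in induced 2 and 1.759 Mb in induced 1.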

How the data were processed

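ChIP-seq peak lists of 4 libraries, 1 list per library, were used. Per the submitters' processing notes, the tools named are MACS2 2.1.1.20160309, BWA 0.7.15 and Trimmomatic 0.36, with hg19 as the build. No source used here gives their settings, the peak threshold or each library's control. The authors deposited for each peak its fold enrichment (a ratio over local background), −log10 p, −log10 q and a score, with start, end and summit offset in bp. Folds are the authors' and were used to describe peaks within a list. Read totals are not in these lists, so depth is unknown.

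Summits (1-based) were assigned to the gene bodies with a margin of 10 kb. The gene limits in hg19 came with the choice of genes, not from the deposited files. Reads over summits were solved from fold and p as MACS2 defines them, with a pseudocount of 1. A whole number within 0.0005 of the listed −log10 p was found for 823 of 823 peaks of induced 1, whose pileups had been divided by 1.40 for peak calling, and 1338 of 1338 of induced 2. Reads are given before that division. Induced 1 had a median of 51 reads and induced 2 of 35. Peaks sharing at least 1 bp were called shared, and their reads were compared by an exact two-sided binomial test on all 661 shared peaks (Python 3.11.15, scipy 1.17.1). Recovery was checked on simulated peaks. The test was checked on simulated reads with the true ratio given, so neither the ratio taken from the shared peaks nor their selection by calling was covered. Intervals take reads as independent molecules. Promoter windows and gene order came from RefSeq GRCh38.p14. Window strand was checked on 3093 overlapping windows of opposite strand, of which 3093 matched on the gene's strand. Strands of PKP2 (minus) and PKP3 (plus) are textbook knowledge. All 6 genes were named, with the nearest peak of each induced list. Genes, lists and tests were chosen with earlier results of these data known. Alternatives covered the margin, the peak threshold, the overlap, the read scale and each library left out.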

Additional observations from a re-analysis of the deposited data

How the results depend on the processing

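The number of peaks near the 6 genes, as the difference in means between induced and uninduced libraries, was 1.5. It was 2.5 with a margin of 20 kb and 4.5 with 50 kb, since the wider margins take in the peaks beside PKP3 and JUP. Genes with a peak in both induced lists rose from 1 to 2 with either margin, PKP3 joining JUP, and shared sites from 1 to 2 and 4. At a fold of at least 5 both counts were 0, because the JUP peak of induced 2 (4.74-fold) drops out, and the difference was 1. The difference was also 1 with no margin, which leaves out DSP, and 1 to 2 with 1 library left out. A margin of 5 kb, distance from the start only, any part of the peak, a −log10 q of at least 5 and other definitions of overlap changed no count. The permutation p was 0.33 to 0.67 throughout. With the replicate number as a block the difference was 1.5 (exact sign-flip test, p = 0.5, which is the lowest value possible with 2 pairs). No label ties equal numbers to a common batch, and peak lists do not allow pairing to be checked. The difference in reads at JUP was 0.26 on the log2 scale, 0.25 with the median ratio and 0.03 with the depth ratio of 1.45 inferred from genome-wide backgrounds, each with an adjusted p of 1. Under that depth ratio 5 of the 661 shared peaks passed, against 0.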

Other observations

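Within 500 kb the neighbourhoods of the 6 genes differed in their number of listed peaks. PKP3 had 7 in induced 1 and 12 in induced 2, JUP had 3 in each, PKP2 had 2 and 1, DSP had 0 and 1, DSG2 had 0 and 1, and DSC2 had 0 in both. Neither uninduced library listed a peak in any of these stretches. The margins of DSG2 and DSC2 overlap at this distance, and the gene bodies differ in length. PKP3 starts at 394217 on chromosome 11, so the chromosome end cuts its margin short on that side. For scale, the whole lists held 0.266 peaks per Mb of hg19 in induced 1 and 0.432 in induced 2. Whether the neighbourhoods differ beyond counting error was not tested.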
